A study of Mus musculus with 18 samples.

Results

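Small nucleolar RNAs (snoRNAs) were followed through 18 RNA-seq libraries of sorted mouse naive T cells. The set was every row of the deposited expression table whose symbol begins with Snord or Snora and a digit, which gave 105 of 23953 rows. Of these, 69 were box C/D snoRNAs (Snord) and 36 were H/ACA snoRNAs (Snora). The choice used names only and no measured value.

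The study asked how the miR-23, miR-27 and miR-24 microRNA cluster acts in T cells, and all cells came from C57BL/6 mice and were sorted by flow cytometry as CD4+, CD25- and CD62L-high. There were 6 genotypes with 3 libraries each. In cluster Tg mice T cells over-expressed the whole cluster. A single member was over-expressed, again in T cells, in miR-23 Tg, in miR-24 Tg and in miR-27 Tg mice. In DKO mice the a and the b cluster were both deleted in T cells, and wild-type mice (WT) were the common reference. The labels name neither the promoter behind the transgenes nor the Cre line, and they do not say that each library came from a separate mouse, so the p-values refer to the spread among libraries, part of which may be technical. RNA was extracted by a method that retains small RNAs and was made into libraries with a TruSeq RNA kit for a HiSeq instrument.

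Box C/D snoRNAs pair with ribosomal RNA and other RNAs and guide the methyltransferase fibrillarin to the sugar to be methylated. H/ACA snoRNAs also pair with their target RNAs and guide the pseudouridine synthase dyskerin. In mammals most of them are cut out of introns of host genes, many of which encode ribosomal proteins or translation factors, while other hosts encode no known protein and are chiefly known for the snoRNAs they carry.

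The snoRNAs whose values carry the results below are shown as annotated in GENCODE M21 (mouse build GRCm38), 5′ to 3′, with DNA letters. In the box C/D sequences the capitals mark TGATG within the first 20 bases (the core of the C box) and CTGA within the last 20 bases (the D box). In the H/ACA sequences they mark ACA within the last 8 bases.
Snord37 (chr10:81178950-81179013, plus strand): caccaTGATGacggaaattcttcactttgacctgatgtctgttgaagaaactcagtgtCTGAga
Snord2 (chr16:23108953-23109021, plus strand): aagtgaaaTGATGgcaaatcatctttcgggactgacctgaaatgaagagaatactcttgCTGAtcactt
Snord104 (chr11:106500993-106501062, plus strand): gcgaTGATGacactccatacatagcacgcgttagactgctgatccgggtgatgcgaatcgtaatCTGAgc
Snord96a (chr11:48802032-48802112, plus strand): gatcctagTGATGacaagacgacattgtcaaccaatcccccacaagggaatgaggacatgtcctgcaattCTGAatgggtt
Snord88a (chr7:44250135-44250224, plus strand): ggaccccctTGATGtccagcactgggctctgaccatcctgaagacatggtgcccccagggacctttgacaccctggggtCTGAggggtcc
Snora81 (chr16:23110756-23110933, plus strand): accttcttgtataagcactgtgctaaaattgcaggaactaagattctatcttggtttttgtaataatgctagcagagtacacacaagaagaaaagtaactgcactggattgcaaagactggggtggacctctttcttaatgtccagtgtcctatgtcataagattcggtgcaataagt
Snora28 (chr12:111540941-111541067, plus strand): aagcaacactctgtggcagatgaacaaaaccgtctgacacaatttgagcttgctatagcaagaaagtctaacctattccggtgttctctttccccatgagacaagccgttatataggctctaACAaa
Snora31 (chr14:75847905-75848034, plus strand): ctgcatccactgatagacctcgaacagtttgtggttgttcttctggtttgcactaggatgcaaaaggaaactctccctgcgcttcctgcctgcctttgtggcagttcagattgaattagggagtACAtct
Snora78 (chr17:24719676-24719803, minus strand): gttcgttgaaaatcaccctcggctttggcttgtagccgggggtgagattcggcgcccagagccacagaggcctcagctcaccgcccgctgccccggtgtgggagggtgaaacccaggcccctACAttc
Snora24 (chr3:123507937-123508066, minus strand): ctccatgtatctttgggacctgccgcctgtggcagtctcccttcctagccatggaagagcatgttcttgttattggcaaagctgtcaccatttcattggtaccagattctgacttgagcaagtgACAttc
On the annotated strand, TGATG and CTGA stood together at these places in 83.6% of the 67 box C/D members with a sequence, in 0 of 36 H/ACA members and in 0.217% of 4150 other GENCODE small RNAs (snRNA, miscellaneous RNA and miRNA transcripts of at least 40 bases). ACA stood within the last 8 bases in 94.4% of the H/ACA members, against 8.96% of the box C/D members and 11.5% of the other small RNAs. Snora81 was 1 of the 2 H/ACA members without it, so its line holds no capitals.

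The labels were checked first on the microRNA hairpins. Mir23a lay between 32829 and 176364 RPKM in cluster Tg and between 64024 and 74236 RPKM in miR-23 Tg libraries, against 0 to 279.5 RPKM in WT. Mir27a lay between 27980.5 and 234933 RPKM in miR-27 Tg libraries, against 95.6 to 194 RPKM in WT, and Mir24-2 between 13888 and 49237 RPKM in miR-24 Tg libraries, against 18.9 to 46.0 RPKM in WT. In DKO libraries Mir27a lay between 0 and 39.5 RPKM and Mir24-2 at 0 throughout, both wholly below WT. Mir23a was listed there between 0 and 76.1 RPKM, which overlapped WT. The hairpins of the b cluster were at 0 in every library of every genotype, so they checked nothing. RPKM values are reads scaled to gene length and to the size of the library. The relative depth, read from the smallest steps of the values and set to 1 for WT replicate 1, was lowest at 0.634 (miR-27 Tg replicate 3) and highest at 1.47 (cluster Tg replicate 3); the absolute depth is unknown.

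A snoRNA signal was present for most of the set. Of the 105 rows, 42 were above 0 in all 18 libraries and 46 in some of them. The remaining 17 were at 0 throughout, with values up to 0.001 RPKM taken as 0. They included all 3 rows for Snord116, the brain-expressed snoRNA of the imprinted Prader-Willi region, and 14 of the 17 were box C/D. All 6 rows annotated at 45 to 52 nt in RefSeq were among those at 0. GENCODE gives the same 6 rows longer lengths, from 65 nt for Snord42a to 108 nt for Snord43. In total 84 rows, 51 box C/D and 33 H/ACA, reached 1 RPKM in at least 3 libraries and entered the tests. The members just inside this limit were Snora74a, with a third-highest value of 6.75 RPKM, and Snora24, with 8.99 RPKM. Just outside were Snord1a, with 1 library above 0, and Snord61, Snord70 and Snord85, each with 2 libraries above 0.

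Behind the high RPKM values stood few reads. In 77 rows the values were whole multiples of the worth of 1 read to within 0.01 of a read, so the reads could be counted back. Summed over the 18 libraries, these rows held 9422 box C/D reads and 11935 H/ACA reads. Single libraries held between 379 and 730 box C/D reads and between 363 and 863 H/ACA reads. The worth of 1 read depended on the length annotated in RefSeq far more steeply than an inverse proportion. The GENCODE length can differ, as for Snord37 at 64 nt. In WT replicate 1 a single read counted for 1438 RPKM in Snord37 and Snord70 (53 nt), for 166 RPKM in Snord2 (68 nt), for 25.2 RPKM in Snora68 (98 nt), for 3.19 RPKM in Snora81 (164 nt) and for 1.11 RPKM in Snord17 (221 nt). The highest worth was 1295 times the lowest, although the longest of these rows was only 4.17 times as long as the shortest. Among 15 lengths shared by 2 or more rows, the worth of 1 read agreed within 1% in 14.

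**Figure D1:**
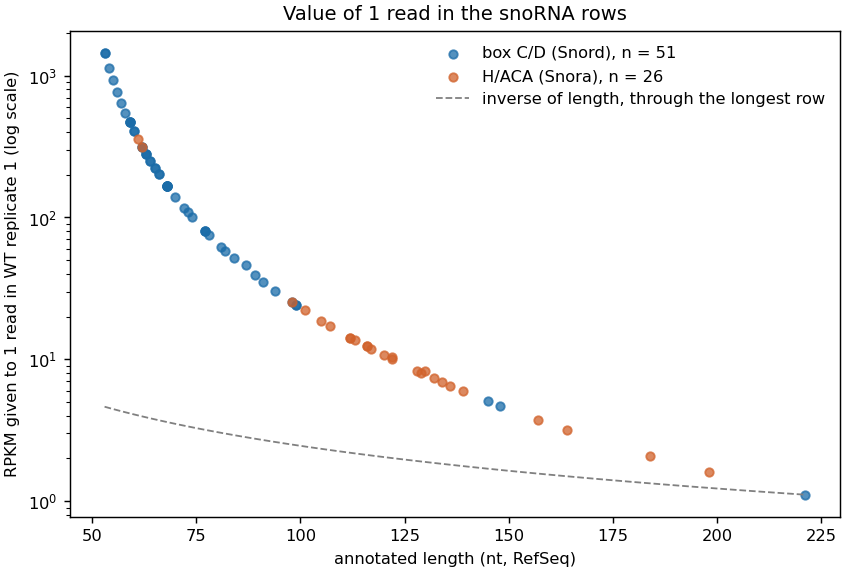
RPKM given to 1 read in WT replicate 1 (y, log scale) against RefSeq length in nt (x) for the 77 rows with whole reads, 51 box C/D in blue and 26 H/ACA in orange. The points fall from 1438 to 1.11 RPKM, while the dashed line shows what an inverse dependence on length through the longest row would give.

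The order of abundance therefore differed between the scales. Of the 10 rows highest in mean RPKM, 3 were among the 10 highest in reads of the 77 rows with countable reads. On the RPKM scale the leading box C/D row was Snord37, carried in an intron of the elongation factor gene Eef2, with a mean of 9726 RPKM from 137 reads. It was followed by Snord47 of the non-coding host Gas5 (5008 RPKM, 444 reads) and Snord100 of Rps12 (4699 RPKM, 559 reads). The other box C/D rows among the 10 highest were Snord69, Snord2, Snord96a, Snord19, Snord104, Snord35b and Snord49a, down to 2769 RPKM. Among H/ACA rows Snora61 of the non-coding host Snhg12 led with 1600 RPKM from 102 reads. Below it came Snora64 of Rps2 with 1417 RPKM, Snora31 of Tpt1 with 897 RPKM and Snora28 of Eif5 with 879.7 RPKM. Snora68, Snora65, Snora70, Snora3, Snora81 and Snora33 completed the 10, down to 358 RPKM.

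Among the rows whose reads could be counted back, Snora81 led with 2350 reads, an H/ACA snoRNA of the translation initiation factor gene Eif4a2. Next stood Snora28 with 1741, Snord35b with 1237, Snora31 with 1211, Snord16a of Rpl4 with 971 and Snord96a of Rack1 (Gnb2l1 in the table) with 912 reads. Per nucleotide of RefSeq length, Snora81, Snora28 and Snord35b lay close together, at 14.3, 14.3 and 14.2 reads per nt over the 18 libraries. Snord37 had 2.58 and Snord19 had 1.06 reads per nt. Reads could not be counted back in 11 rows, Snora24, Snora26, Snora34, Snora47, Snora64, Snora65, Snora70, Snord1a, Snord22, Snord45c and Snord7, of which 8 lie within an annotated exon of the host. These 11 rows have no place in the order by reads, although some were high, such as Snord22 with a mean of 1517 RPKM at 126 nt.

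**Figure D2:**
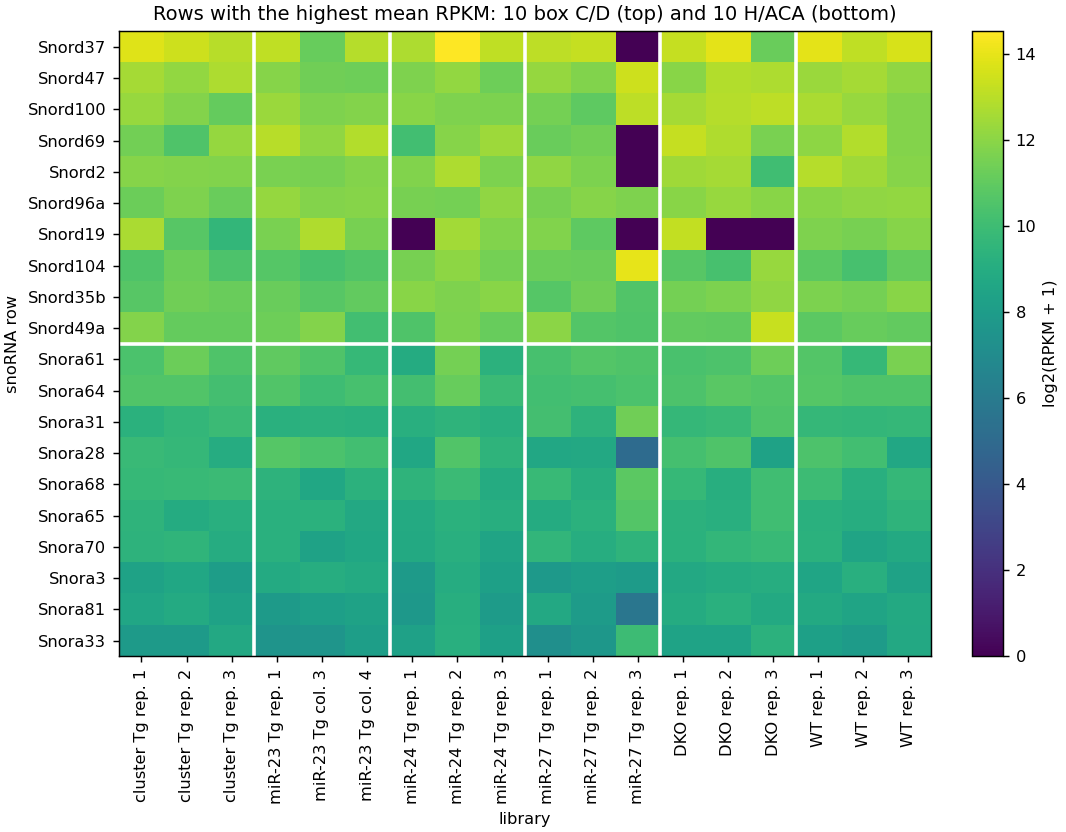
Level as log2(RPKM + 1) (colour) of the 10 box C/D rows (top) and 10 H/ACA rows (bottom) with the highest mean RPKM, by library, with the transgenic and DKO libraries left and WT right. The darkest cells among these 20 rows are values of 0, for example Snord37, Snord69, Snord2 and Snord19 in miR-27 Tg replicate 3.

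The hosts were of several kinds. A host gene on the same strand was annotated for 101 members, in 74 genes. Protein-coding hosts held 75 members, and 31 members lay in genes for ribosomal proteins. Within these hosts 52 members lay in introns of every annotated transcript, 42 lay wholly inside an exon of at least 1 transcript and 7 overlapped an exon in part. Among the hosts, Rpl13a, which carries 4 of the snoRNAs, averaged 2456 RPKM, and the Rps12 row, which carries Snora33 and Snord100, averaged 9.08 RPKM. Because the worth of 1 read rises so steeply in short rows, the RPKM of a snoRNA and of its host were not compared. Reads of a ribosomal protein gene that also match its many near-identical copies may have been split or lost in counting, so these host levels are uncertain.

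Summed snoRNA levels of each genotype overlapped those of WT, in RPKM and in reads over relative depth. As a share of the summed RPKM some did not, a share weighted to short rows by the worth of 1 read. Summed over the 69 box C/D rows, cluster Tg libraries held 68423 ± 10895 RPKM, miR-23 Tg 60807 ± 9016, miR-24 Tg 71129 ± 27472, miR-27 Tg 61976 ± 10694 and DKO 82308 ± 3412, against 73958 ± 8848 RPKM in WT (SD, n = 3 each). The sums over the 36 H/ACA rows were 10236 ± 1165 RPKM in cluster Tg, 9582 ± 1439 in miR-23 Tg, 9197 ± 4150 in miR-24 Tg, 9964 ± 2959 in miR-27 Tg and 11831 ± 1326 in DKO, against 10614 ± 1460 RPKM in WT. Reads divided by relative depth were summed only over the 51 box C/D and 26 H/ACA rows with countable reads. These sums leave out rows such as Snord22 and Snora64, which the RPKM sums hold. On this scale the box C/D rows held 447 ± 59.8 reads in cluster Tg, 418 ± 73.5 in miR-23 Tg and 469 ± 120 in miR-24 Tg. They held 463 ± 139 in miR-27 Tg and 548 ± 66.0 in DKO, against 482 ± 34.5 in WT. On the same scale the H/ACA rows held 587 ± 80.9 reads in cluster Tg, 601 ± 59.2 in miR-23 Tg and 553 ± 216 in miR-24 Tg. They held 501 ± 74.0 in miR-27 Tg and 696 ± 59.8 in DKO, against 609 ± 86.1 in WT. Every one of these means lay within 2 SD of WT, and no test was run on the sums. As a share of the RPKM sum of the whole library, all snoRNA rows held 9.24% to 10.6% in cluster Tg, 9.82% to 12.0% in miR-23 Tg, 10.4% to 16.5% in miR-24 Tg, 7.63% to 8.81% in miR-27 Tg and 13.2% to 15.5% in DKO, against 13.2% to 15.0% in WT, so that cluster Tg, miR-23 Tg and miR-27 Tg lay wholly below WT. That sum includes the microRNA hairpins, which reached 519793 RPKM in cluster Tg, 170935 RPKM in miR-23 Tg and 338101 RPKM in miR-27 Tg, against at most 108616 RPKM in WT. With the microRNA rows left out of the sum, the share was 14.6% to 19.6% in cluster Tg and 13.4% to 15.9% in miR-23 Tg, which overlapped WT at 15.5% to 18.2%. In miR-27 Tg it was 10.9% to 13.9%, still wholly below WT. In reads over relative depth miR-27 Tg overlapped WT. It held 358 to 621 box C/D reads against 451 to 519, and 425 to 572 H/ACA reads against 529 to 700. The miR-24 Tg libraries spread most: replicate 1 held the lowest sums of all 18 libraries in both classes, 50597 and 6555 RPKM, and replicate 2 the highest, 102337 and 13980.2 RPKM.

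Spread within a genotype was larger in classes with fewer reads, though on this scale it also varied with the worth of 1 read. Snora74a (44 reads, 1.62 RPKM for 1 read in WT replicate 1) had an SD of 1.24. Snord65 (43 reads, 642 RPKM for 1 read) had 5.18. For 22 tested rows with under 50 reads in all, the SD within genotypes on the log2(RPKM + 1) scale had a median of 3.34. It was 1.91 for 11 rows with 50 to 99 reads, 0.819 for 22 rows with 100 to under 400 and 0.536 for 19 rows with 400 or more. Over all 11099 tested rows the median was 0.254. In the best covered class the SD ran from 0.23 to 2.88, so its lowest value was below the median of all rows. The highest was that of Snord2, with 491 reads and a 0 in miR-27 Tg replicate 3.

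**Figure D3:**
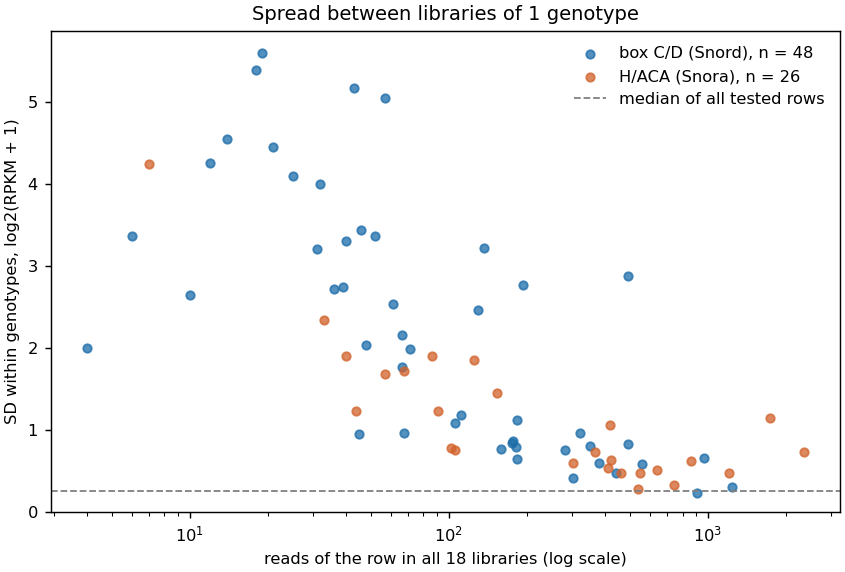
SD within genotypes of log2(RPKM + 1) (y) against the reads of the row in all 18 libraries (x, log scale) for 74 tested rows with countable reads, box C/D in blue and H/ACA in orange; the dashed line is the median of all 11099 tested rows, 0.254. Most points with under 100 reads lie above 1 log2 unit.

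Differences between genotypes were tested with limma on log2(RPKM + 1) in a model of all 18 libraries, with Benjamini-Hochberg adjustment over the 11099 rows and a threshold of 0.05. Between cluster Tg and WT, 1 of 84 snoRNA rows passed, Snora24, beside 8.48% of all rows. Between miR-27 Tg and WT, 2 passed, Snora78 and Snord88a, beside 8.95% of all rows. None passed between miR-24 Tg and WT (3.59% of all rows), between miR-23 Tg and WT (0.045%) or between DKO and WT (0%). At an unadjusted p under 0.05 the same model counted 1, 2 and 3 snoRNA rows in these comparisons, beside 14.4%, 7.63% and 0.73% of all rows. The same count was 4 in cluster Tg (20.1% of all rows) and 15 in miR-27 Tg (24.7%), against WT. With the cluster gained in one genotype and lost in the other, cluster Tg against DKO, 1 passed, again Snora24, beside 11.3% of all rows. An F test over the 6 genotypes passed Snora24 and Snord82, beside 19% of all rows.

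Snora24, a member that lies within an exon of the non-coding host Snhg8, stood at 48.1, 8.99 and 4.63 RPKM in the cluster Tg libraries, against 0.00237 to 0.00958 RPKM in DKO and 0.00219, 0.00228 and 0.000152 RPKM in WT. Outside cluster Tg it passed 1 RPKM in a single library, at 11.9 RPKM in miR-24 Tg replicate 3. The row reached 1 RPKM in 3 libraries only through cluster Tg and that one library, so it entered the tests through the genotype in which it was high, and its call is no independent support for a difference. All cluster Tg values lay above all WT values, with a fitted log2 fold change of 3.81 (SE 0.84, limma adjusted p = 0.0108; 0.0173 with no filter). The difference from DKO was 3.80 (SE 0.84, limma adjusted p = 0.00931). These values were no whole reads, the size of the fold change depended on the pseudocount, and without cluster Tg replicate 1 the log2 fold change was 2.90 (limma adjusted p = 0.064). Snhg8 itself averaged 81.3 ± 9.62 RPKM in cluster Tg and 96.7 ± 6.27 RPKM in WT, a log2 fold change of -0.25 (SE 0.44, limma adjusted p = 0.873).

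Snora78, in an intron of the non-coding host Snhg9, stood at 68.95, 113 and 261 RPKM in miR-27 Tg, against 45.1, 63.5 and 37.1 RPKM in WT. These values came from 18, 36 and 44 reads in miR-27 Tg and from 12, 19 and 9 reads in WT. The groups did not overlap, and the log2 fold change was 1.40 (SE 0.41, limma adjusted p = 0.048). The highest value was that of replicate 3, and without it the log2 fold change was 0.88 (limma adjusted p = 0.126). The call was also lost without miR-27 Tg replicate 2 and without any single WT library, with limma adjusted p between 0.0599 and 0.159. In miR-24 Tg the row was also above all WT libraries, at 109, 73.1 and 85.8 RPKM, with a log2 fold change of 0.88 (SE 0.41) that did not pass (limma adjusted p = 0.348). Snhg9 averaged 30.3 ± 40.99 RPKM in miR-27 Tg and 10.5 ± 9.75 RPKM in WT (SD, n = 3), and that difference did not pass either (limma adjusted p = 0.502).

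Snord88a was listed at 0 in all 3 miR-27 Tg libraries, against 117, 313 and 129 RPKM in WT, which were 1, 3 and 1 reads. It was also at 0 in 1 miR-23 Tg and 1 miR-24 Tg library. The fitted log2 fold change of -7.40 (SE 2.06, limma adjusted p = 0.0384) depends on the pseudocount and is no measure of size. With 1 read added in place of 1 RPKM it was -1.38 (limma adjusted p = 0.201), and the call was lost without any single library of either genotype. The protein-coding host 2410002F23Rik averaged 33.6 ± 7.93 RPKM in miR-27 Tg and 38.0 ± 2.76 RPKM in WT, and did not pass (limma adjusted p = 0.44). Snord82, from an intron of the nucleolin gene Ncl, rested on 10 reads in the whole series: 1, 0 and 1 in cluster Tg, 1, 2 and 2 in DKO, 0, 3 and 0 in WT and none in the other genotypes (F test over the 6 genotypes, limma adjusted p = 0.0393).

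For the 41 members with 100 or more countable reads the intervals show what these data could have resolved. Their log2 fold changes had a median SE of 0.573, against 0.202 for all tested rows. Between cluster Tg and WT they ran from -1.47 to 0.79, with 22 above 0 and 19 below. The box C/D snoRNA Snord96a stood at 2454, 3419 and 2366 RPKM in cluster Tg, against 3876, 4449 and 4605 RPKM in WT. Its groups did not overlap, and the log2 fold change of -0.67 (SE 0.27) did not pass the test (limma adjusted p = 0.161). Snord35b, also of the box C/D class, stood at 1644, 2697 and 1526 RPKM in miR-27 Tg, against 3226, 2908 and 3993 RPKM in WT. Here too the groups were apart, with a log2 fold change of -0.82 (SE 0.29, limma adjusted p = 0.0981).

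The counts of members whose groups did not overlap were set beside those of all rows. Between cluster Tg and WT, 3 of 84 snoRNA rows lay wholly higher and 3 wholly lower, which is 3.57% each, beside 22.1% and 20.6% of all rows. In miR-23 Tg, 2 lay wholly above WT and 5 wholly below, 2.38% and 5.95%, beside 15.2% and 13.6% of all rows. In miR-24 Tg the counts were 6 and 2, 7.14% and 2.38%, beside 17.5% and 16%. In miR-27 Tg, 3 lay wholly above WT and 11 wholly below, 3.57% and 13.1%, beside 15% and 12.3% of all rows. In DKO, 3 lay wholly above WT and none below, beside 2.44% and 2.52%. Between cluster Tg and DKO, 1 lay wholly higher and 6 wholly lower in cluster Tg, 1.19% and 7.14%, beside 19.7% and 17.9%. The snoRNA share was the smaller one in cluster Tg, miR-23 Tg and miR-24 Tg in both directions, while in miR-27 Tg the lower side, and in DKO the higher side, were near that of all rows.

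Median log2 fold changes over the 84 rows were 0.16 in cluster Tg, -0.05 in miR-23 Tg, -0.09 in miR-24 Tg, -0.29 in miR-27 Tg and 0.31 in DKO, against medians of 0.00 to 0.03 over all tested rows, and the median SE of a snoRNA row was 0.913.

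**Figure D4:**
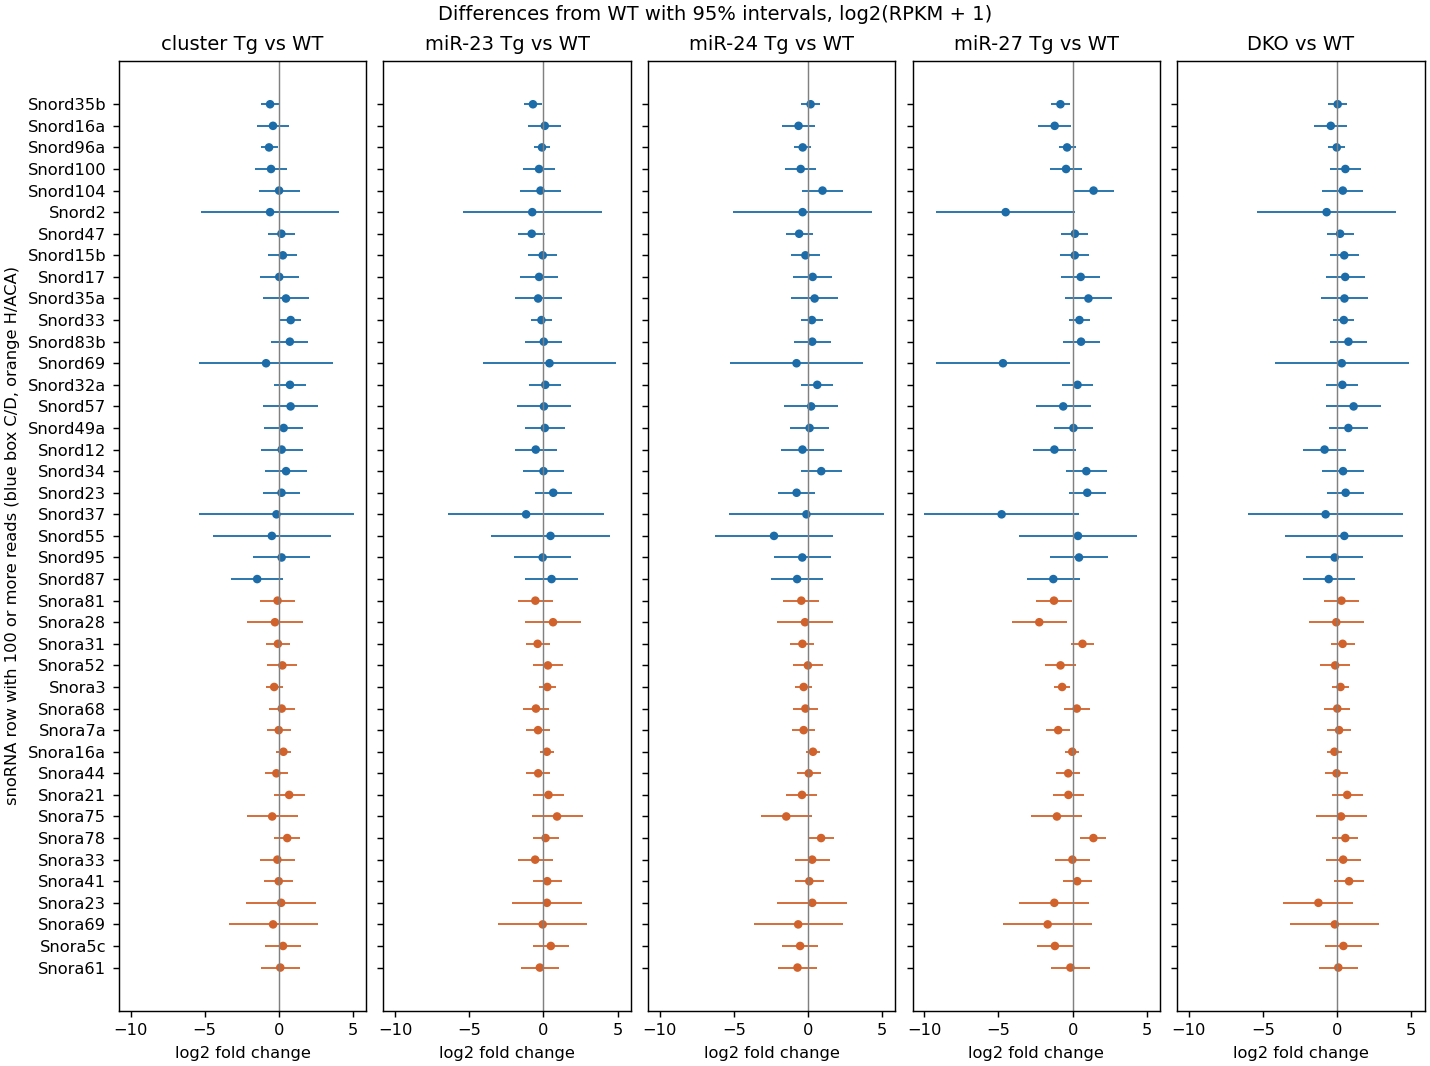
Log2 fold change against WT with its 95% interval (x) for the 41 snoRNA rows with 100 or more countable reads (y). There is 1 panel per genotype, with box C/D in blue and H/ACA in orange. Of the points shown, 1 passed the test across all rows, Snora78 in miR-27 Tg, and Snord37, Snord69 and Snord2, all at 0 in miR-27 Tg replicate 3, are among those with the widest intervals.

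The third libraries of miR-27 Tg and of DKO differed from the other 16, in snoRNA rows as in others. Among the 41 well covered rows, miR-27 Tg replicate 3 lay above all 16 in 13 and below all 16 in 10, which is 31.7% and 24.4%, beside 35.5% and 32.5% of all 11099 tested rows. For DKO replicate 3 the counts were 13 above and 4 below, 31.7% and 9.76%, beside 25.5% and 23.1% of all rows. Counted among all 18 libraries, miR-27 Tg replicate 3 was the highest in 12 of the 41 rows and the lowest in 10. DKO replicate 3 was the highest in 7 and the sole lowest in 0. No other library was the highest of the 18 in more than 5 of the 41 rows, or the lowest in more than 5. The snoRNA shares above the other 16 are thus near those of all rows.

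Snord104, the only one of the 41 without an annotated host gene, reached 16248 RPKM (95 reads) in miR-27 Tg replicate 3 and 4961 RPKM (56 reads) in DKO replicate 3, while the other 16 libraries ran from 1253 to 4332 RPKM. Snord35a, which lies in an intron of Rpl13a, reached 3209.5 and 1247 RPKM in the pair, above a range of 183 to 922 RPKM. Snora31 reached 2672 and 1477 RPKM, above a range of 576 to 1161 RPKM. In all, 7 rows lay above the other 16 in both: Snora31, Snora33, Snora41, Snora68, Snord100, Snord104 and Snord35a. The share of all tested rows outside the range in both libraries was not counted, so such joint counts are a description only.

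In the other direction, Snora28 had 2 reads in miR-27 Tg replicate 3 and 39 in DKO replicate 3, or 32.7 and 330.4 RPKM, below a range of 405 to 1662 RPKM. Snord2 was at 0 and 1085 RPKM, below a range of 2982 to 7807 RPKM, and Snora23 was at 0 in both. Snora52 completed the 4 rows below the other 16 in both, again without a share of all rows to set beside them. Snora81, with most reads among the rows counted back, parted the pair. It was at 50.4 RPKM in miR-27 Tg replicate 3. In DKO replicate 3 it was at 459 RPKM, within the range of 215 to 588 RPKM of the others. Snord35b parted them too, at 1526 RPKM below and 4442 RPKM above a range of 1644 to 3993 RPKM. Snord49a was high in DKO replicate 3 only among these libraries, at 10020 RPKM and 39 reads, against 1488 RPKM in miR-27 Tg replicate 3 and at most 4167 RPKM elsewhere.

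**Figure D5:**
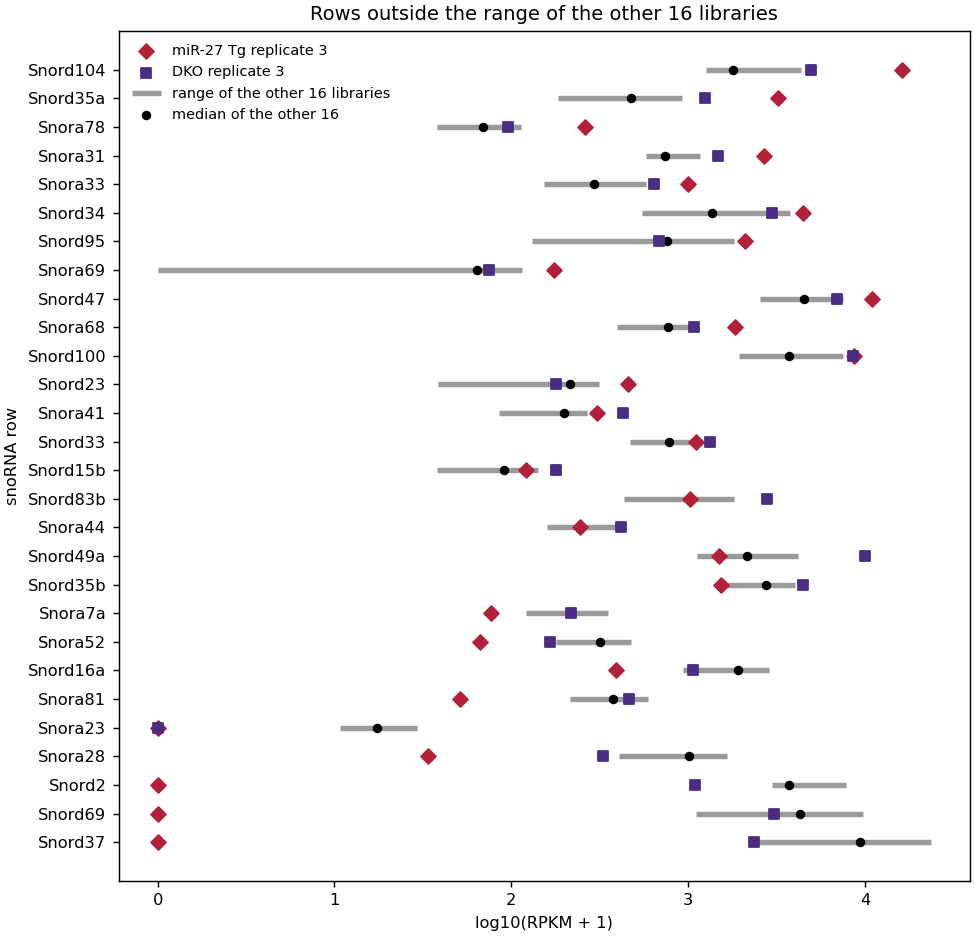
Level as log10(RPKM + 1) (x) of the 28 well covered rows in which miR-27 Tg replicate 3 (red diamonds) or DKO replicate 3 (purple squares) lay outside the range of the other 16 libraries (grey lines, with their median as black points). Rows at the top were high in miR-27 Tg replicate 3, led by Snord104, and rows at the bottom, such as Snord37, Snord69 and Snord2, were at 0 there.

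The host genes of these rows moved in the same libraries, and not always with their snoRNAs. Of 32 hosts, 24 lay above all 16 in miR-27 Tg replicate 3 and 22 in DKO replicate 3, beside 35.5% and 25.5% of all tested rows. Below all 16 lay 4 and 1 of them, beside 32.5% and 23.1% of all tested rows. All 13 hosts for ribosomal proteins lay above in both. Rpl13a was at 7749 RPKM in miR-27 Tg replicate 3 and 4714 RPKM in DKO replicate 3, above a range of 1019 to 2624 RPKM. Of the 10 snoRNAs below the range in miR-27 Tg replicate 3, Snora52, Snora7a and Snord16a had hosts above it (Rplp2, Rpl32 and Rpl4). Another 4, Snora23, Snora28, Snora81 and Snord2, had hosts below it. Eif4a2, the shared host of Snora81 and Snord2, was at 111 RPKM there, below a range of 189.9 to 313.5 RPKM. Rows of the same host could part: in miR-27 Tg replicate 3, Snord34 and Snord35a of Rpl13a lay above the other 16 libraries, while Snord32a (587 RPKM) and Snord33 (1103 RPKM) lay within their ranges.

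Transcripts of other cell types also moved with miR-27 Tg, though not there alone and not all upward. Summed over 10 B cell markers, its libraries held 30.2 to 148 RPKM, against 4.60 to 6.45 RPKM in WT, and all 8 tested markers were higher by limma. Over 9 myeloid markers they held 29.9 to 593 RPKM, against 2.99 to 3.75 RPKM in WT, where the granulocyte gene S100a8 was at 0 in every library. Naive CD4 T cell genes summed to at most 6957 RPKM in miR-27 Tg and 4791 RPKM in WT, and none of 14 passed. Whether other cells had a part in the snoRNA values of any genotype was not tested. Nor was a part of the lower depth of replicate 3 in those of miR-27 Tg.

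The proteins that bind snoRNAs were tested as a list of 8 core subunits. None passed in any comparison. In cluster Tg all 8 had negative log2 fold changes against WT, with a median of -0.25. Among the box C/D proteins, the methyltransferase fibrillarin (Fbl) had the lowest, -0.60 (SE 0.21, limma adjusted p = 0.0969), at 11.6 RPKM in cluster Tg and 17.97 RPKM in WT. Nop56 and Nop58, which scaffold the particle, had -0.15 and -0.11, and the k-turn binding protein Nhp2l1 had -0.31. Among the H/ACA proteins the values were -0.14 for dyskerin (Dkc1), -0.53 for Nop10, -0.31 for Gar1 and -0.18 for Nhp2. In DKO the 8 values were all above 0, with a median of 0.06. Of 13 tested assembly factors none passed either, with medians of -0.13 in cluster Tg and 0.07 in DKO.

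Among the host genes a few differences passed the test. Of 38 protein-coding hosts, 2 fell in cluster Tg against WT and none rose, a smaller share than the 8.48% of all rows called in that comparison. By sign, 35 of the 38 were negative there and 3 positive, with a median log2 fold change of -0.37, beside 0 over all rows. Of 11 tested non-coding hosts, 10 were negative and 1 positive, with a median of -0.36. In DKO against WT, 33 of the 38 were positive and 5 negative, with a median of 0.10. Eef2 averaged 1088 ± 117 RPKM in cluster Tg and 1884 ± 107 RPKM in WT (SD, n = 3), a log2 fold change of -0.80 (SE 0.17, limma adjusted p = 0.00938). Its snoRNA Snord37 stood at 14564, 11067 and 7839 RPKM in cluster Tg, against 15816, 8944 and 12615 RPKM in WT, and those groups overlapped. Tpt1, a gene of translation and growth, averaged 452 ± 228 RPKM in cluster Tg and 918 ± 67.9 RPKM in WT, a log2 fold change of -1.19 (SE 0.34, limma adjusted p = 0.0458). Its snoRNA Snora31 stood at 608, 789 and 941 RPKM in cluster Tg, against 812, 785 and 812 RPKM in WT, and its groups overlapped as well. Without cluster Tg replicate 1 the log2 fold changes were -0.71 for Eef2 (limma adjusted p = 0.0601) and -0.65 for Tpt1 (limma adjusted p = 0.141). The Tpt1 call was also lost without any single WT library.

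Eif5, the host of Snora28, averaged 68.9 ± 11.4 RPKM in miR-27 Tg and 122 ± 14.7 RPKM in WT, a log2 fold change of -0.82 (SE 0.22, limma adjusted p = 0.0343). Snora28 stood at 412, 442 and 32.7 RPKM in miR-27 Tg, against 1411, 1115 and 421 RPKM in WT, a log2 fold change of -2.25 (SE 0.87) that did not pass (limma adjusted p = 0.131). Among 11 tested non-coding hosts, Snhg4 fell in cluster Tg, at 3.76 ± 0.09 RPKM in cluster Tg and 7.33 ± 1.498 RPKM in WT, a log2 fold change of -0.79 (SE 0.22, limma adjusted p = 0.0348). Against DKO, the hosts Snhg3, Snhg4, 2410006H16Rik, Eef2, Tpt1 and Rps3 were lower in cluster Tg, beside 11.3% of all rows called. The Eif5 call was lost without any single library other than miR-27 Tg replicate 2, and the Snhg4 call against WT without any single library of either genotype. The 6 calls against DKO were each lost without cluster Tg replicate 1, and those of all but Eef2 without DKO replicate 3 as well.

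Among 39 tested genes of RNA polymerase I and early ribosome assembly, Rrn3, an initiation factor of that polymerase, fell in cluster Tg, with a log2 fold change of -0.38 (SE 0.09, limma adjusted p = 0.017). It was the only 1 of the 39 called there, beside 8.48% of all rows. In miR-27 Tg the assembly factor Wdr12 rose by a log2 fold change of 0.80 (limma adjusted p = 0.0153), while Utp15 and Wdr3, both of the small subunit processome, fell by 0.45 and 0.37 (limma adjusted p = 0.0324 and 0.0244). Against DKO, Rrn3, Nop14 and Npm1 were lower in cluster Tg. These 3 of 39 in each comparison stand beside 8.95% of all rows called in miR-27 Tg and 11.3% against DKO. None of the list passed in miR-23 Tg, miR-24 Tg or DKO against WT. The call against WT was lost for Rrn3 without cluster Tg replicate 1 or 2 or WT replicate 3, for Wdr12 without WT replicate 1, for Utp15 without any single WT library and for Wdr3 without WT replicate 2 or 3. Those against DKO were lost without cluster Tg replicate 1 or 2 or DKO replicate 1 or 2, and for Nop14 and Npm1 without replicate 3 of either genotype too. Over hosts and assembly genes, each of 17 calls was lost without at least 1 single library.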

How the data were processed

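The authors deposited 1 table of RPKM values for 18 libraries. The submitters' processing notes name HOMER, STAR 2.2.0c and mm9 (a mouse genome build), without roles. Gene models and their lengths, strand use and the handling of shared reads are not stated there. Of 23953 rows, 2 repeated a symbol, and 23951 remained. A pair of miR-23 Tg columns share 1 name, so they carry no replicate number.

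From the RPKM values, rows with at least 1 RPKM in at least 3 libraries were kept (11099), and log2(RPKM + 1) was fitted by genotype over all 18 libraries in limma 3.58.1 (R 4.3.3) with a variance trend, and adjusted by Benjamini-Hochberg. No count model was used. Fold changes on this scale understate the change of rows low in RPKM. In short snoRNA rows, where 1 read stands for many RPKM, libraries without a read gave large fold changes instead, as for Snord88a. With 3 libraries against 3, an exact permutation test could not go below p = 0.1, so none was run.

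Reads were counted back as multiples of the smallest common step of a row, after each library was scaled by the worth of 1 read. All of them lay within 0.000367 of a whole number. They are described and were not tested.

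The model was tested on simulated data with the real rows. Host genes and sequences came from GENCODE M21 (GRCm38), for 104 of 105 members, and lengths and synonyms from RefSeq (GRCm38.p6). No genome of build mm9 was used. Values of 1 of the host genes are not reported here. Named snoRNAs were those called, the 10 highest in mean RPKM of each class, those at the limit of the filter and the Snord116 rows; members of interest in the pair of libraries that stood apart, Snord96a, Snord35b and Snora28 among them, were chosen after their values were seen. The members and gene lists were chosen with earlier results of these data known. Alternatives were other pseudocounts, filters, scalings and fits, and libraries left out.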

Additional observations from a re-analysis of the deposited data

How the results depend on the processing

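The number of snoRNA rows called stayed between 0 and 5 under the alternatives run, and changed most often in miR-27 Tg against WT and in the F test. In cluster Tg against WT it was 1, and 2 with no variance trend or with only the 2 genotypes compared; with single libraries left out it was 0 to 1, the 0 being without cluster Tg replicate 1. In miR-27 Tg against WT it was 2, then 1 with a 5 RPKM filter or the replicate block, 0 with no filter or with a pseudocount of 5, 1 without DKO replicate 3 and miR-27 Tg replicate 3, and 0 to 5 with single libraries left out, 0 being the count without miR-27 Tg replicate 3. In miR-24 Tg against WT it was 0, and 1 with only the 2 genotypes compared or without DKO replicate 3 and miR-27 Tg replicate 3. Cluster Tg against DKO gave 1, then 2 with no variance trend, with quantile normalisation or without that pair, and 0 to 1 with single libraries left out. The F test gave 2, then 1 with no filter, a pseudocount of 5, a pseudocount of 1 read or the replicate block, 4 with quantile normalisation, and 0 to 5 with single libraries left out. No snoRNA row was called in DKO or miR-23 Tg against WT under any alternative run. The summed box C/D level of DKO over WT was 1.11, and 0.876 as a median over the rows above 0. The cause of these changes was not tested.

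Whether replicate numbers pair the libraries was not settled. Same-numbered libraries of different genotypes correlated between -0.111 and 0.58 in their deviations from the genotype means (median 0.0806 over 30 pairs). Libraries with different numbers ran lower, from -0.475 to 0.295 (median -0.0382 over 60 pairs), with overlapping ranges. The replicate block is reported only here. The pseudocount of 1 read, the sum of reads and the share without microRNA rows were chosen after seeing the data. The number of reads limits every value here: 22 tested rows held under 50 reads over 18 libraries.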
